A study of Mus musculus with 56 samples.

Results

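The 9 T-box genes Tbx1, Tbx2, Tbx3, Tbx4, Tbx5, Tbx15, Tbx18, Tbx20 and Tbx21 were followed through the H2A.Z data of a study of RNase H1 induction in mouse embryonic stem cells. Members were taken by gene name from the 2 lists in which the authors put peaks of lower or of higher H2A.Z, and by position from the full set of 61420 H2A.Z peaks. By name the lists gave 12 lower and 0 higher peaks, assigned to 7 of the 9 genes, while Tbx15 and Tbx18 were in neither list. By position 30 peaks of the set were centred within 10 kb of the 9 genes. The study used CUT&Tag, in which an antibody directs a transposase to chromatin so that tagged DNA marks where a protein lies. The cells were the RHKI line, derived from E14Tg2a embryonic stem cells, and all libraries, controls included, came from this HA-Rnaseh1 knock-in. The compared groups were taken to be the 4 untreated H2A.Z control libraries and the 4 from cells given doxycycline at 500 ng/ml for 48 hours. All cells were kept in LIF with inhibitors of MEK and GSK3, conditions of undifferentiated growth. Whether the line is 1 clone is not given in the sources used here.

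H2A.Z is a variant of histone H2A that marks promoters and enhancers, including those of developmental genes that are silent but poised in embryonic stem cells. RNase H1 degrades RNA that is paired with DNA. Inducing it is a means of removing R-loops, and the comparison asks where H2A.Z then changes. T-box genes encode transcription factors that share a DNA-binding domain, the T-box. Tbx1 patterns the pharyngeal arches and the outflow tract of the heart, Tbx5 and Tbx20 drive formation of heart chambers, Tbx2 and Tbx3 repress chamber genes in the conduction system, and Tbx18 acts in the sinus node and epicardium. Tbx5 and Tbx4 are the factors of the forelimb and the hindlimb, and Tbx15 acts in the skeleton and dermis. Tbx21 encodes T-bet, the master factor of type 1 helper T cells, and is not a gene of heart or limb. Tbx3 is also active in naive embryonic stem cells, where it supports self-renewal. The files hold no expression values, so neither the labelled cell type nor the induction of Rnaseh1 was checked against gene expression.

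RefSeq promoter windows of GRCm38.p6 were matched for 5 of the 9 genes. The 250 bases before the outermost start are shown, 5′ to 3′ on the strand of the gene, for the 4 genes at which an H2A.Z peak covers them, because the peaks of the first pair were in the lower list and those of the second pair in neither list. All 4 genes lie on the minus strand. CpG dinucleotides are in capitals.
Tbx1 (chr16:18590672-18590921, peak in the lower list): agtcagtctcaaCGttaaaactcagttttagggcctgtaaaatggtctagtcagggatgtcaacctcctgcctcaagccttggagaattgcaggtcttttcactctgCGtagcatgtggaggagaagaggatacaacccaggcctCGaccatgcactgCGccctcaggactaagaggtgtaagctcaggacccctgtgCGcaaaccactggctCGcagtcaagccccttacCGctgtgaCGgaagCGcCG
Tbx21 (chr11:97115332-97115581, peak in the lower list): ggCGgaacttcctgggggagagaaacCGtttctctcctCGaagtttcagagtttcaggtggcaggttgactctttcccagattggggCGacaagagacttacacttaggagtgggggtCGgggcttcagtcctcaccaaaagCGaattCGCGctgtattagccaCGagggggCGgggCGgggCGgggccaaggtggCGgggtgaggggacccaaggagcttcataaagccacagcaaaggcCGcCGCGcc
Tbx18 (chr9:87731261-87731510, peak in neither list): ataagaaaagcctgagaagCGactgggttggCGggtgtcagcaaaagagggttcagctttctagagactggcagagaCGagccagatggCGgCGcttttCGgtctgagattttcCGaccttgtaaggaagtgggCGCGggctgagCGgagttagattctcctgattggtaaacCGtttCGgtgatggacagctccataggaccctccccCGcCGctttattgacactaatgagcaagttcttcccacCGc
Tbx20 (chr9:24774304-24774553, peak in neither list): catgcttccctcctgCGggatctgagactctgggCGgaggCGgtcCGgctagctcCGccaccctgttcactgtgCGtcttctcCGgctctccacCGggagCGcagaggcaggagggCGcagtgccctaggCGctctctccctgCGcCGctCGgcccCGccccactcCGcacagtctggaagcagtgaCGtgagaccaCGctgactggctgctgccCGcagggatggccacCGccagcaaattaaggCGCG

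These stretches held 10 CpGs at Tbx1, 16 at Tbx21, 15 at Tbx18 and 22 at Tbx20, against a median of 6 over all 32851 windows of the table. All 4 were therefore richer in CpG than the typical promoter, and the ranges of the lower pair and the other pair overlap. GC content was 54.4% at Tbx1, 60.8% at Tbx21, 54.0% at Tbx18 and 68.8% at Tbx20, against a median of 52.4%. Tbx1 has a further RefSeq start at position 18588899, whose 300-base window held 26 CpGs and lay in the same lower peak. For Tbx4 the table gives a start at 85896765, inside the gene, whose window held 8 CpGs and overlapped no peak. The letters GGTGTG, the core of the site that T-box factors bind, were searched on both strands of the 300-base windows, together with GGTGTGA, which contains them. Neither was found in the 6 windows of member genes, and 19.0% and 3.98% of all windows held them. No match says only that these letters are not in these windows.

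Of the 30 peaks within 10 kb of the 9 genes, 11 were in the lower list and 0 in the higher list. The share of lower peaks was 36.7% (95% exact Clopper-Pearson interval 19.9 to 56.1%), against a background of 19.5% of the 36576 peaks within 10 kb of any protein-coding gene and 14.8% of all peaks. The interval reaches down almost to the background near genes. A count of 0 higher peaks among 30 allows a share of up to 10%, and the background of higher peaks was 0.284% near protein-coding genes and 0.518% over all peaks. At 7 of the 9 genes at least 1 peak was lower, where 42.4% of the 16931 protein-coding genes with a peak had one. This share depends on how many peaks lie at a gene. Of the protein-coding genes with as many peaks as a given member, between 43.2% (2 peaks) and 62.4% (5 peaks) had a lower peak. Intervals cover the counting of peaks only, since the lists give no value per library. They treat peaks as independent, though neighbouring peaks may share a call. Of all lower peaks, 46.8% are next to another lower peak in order along the chromosome, at any distance. What independent calls would give for that share was not computed. Dependence between neighbours would make the intervals too narrow, and a bound so close to the background should not be read as a difference. Sequencing depth and the spread between the 4 libraries of a group are unknown here. No test was made on these counts, because the genes were chosen with results of these data known.

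**Figure D1:**
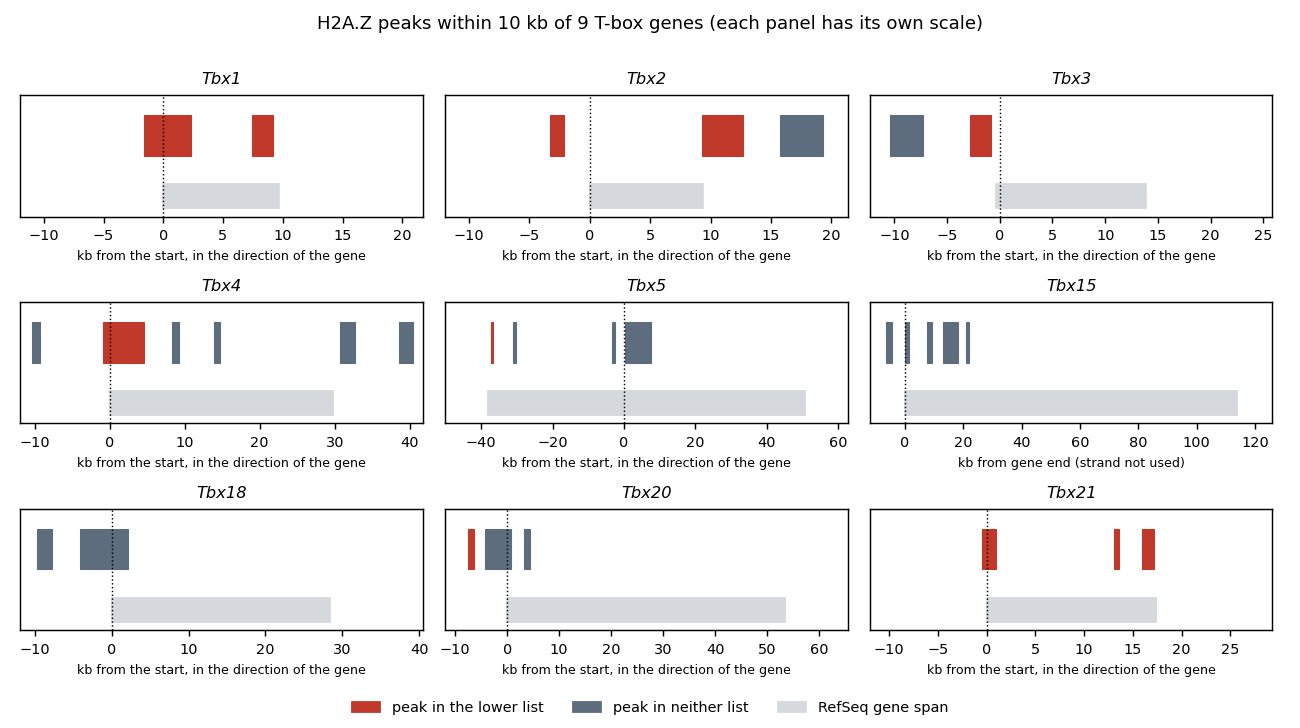
H2A.Z peaks (upper bars) centred within 10 kb of each of the 9 genes, drawn to their width, with the gene span in RefSeq as the light bar below. The x axis is the distance in kb from the start of the gene (dotted line), or, for Tbx15, from the gene end of lower coordinate. All peaks at Tbx1 and Tbx21 were in the lower list, and none at Tbx15 and Tbx18.

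The genes are set out here by whether all, some or none of their peaks were lower. These groups cover every possible outcome, and with 2 to 6 peaks per gene single calls can separate them. At Tbx1 (2 of 2 peaks) and Tbx21 (3 of 3) every peak within 10 kb was lower. At Tbx2 (2 of 3), Tbx3 (1 of 2), Tbx4 (1 of 6), Tbx5 (1 of 4) and Tbx20 (1 of 3) lower peaks stood beside peaks in neither list. At Tbx15 (0 of 5) and Tbx18 (0 of 2) no peak was in a list. Of the summed peak width, 56.2% was in the lower list at Tbx2, 46.1% at Tbx4, 39.2% at Tbx3, 16.3% at Tbx20 and 6.24% at Tbx5. Tbx5 and Tbx20 thus had lower peaks that covered little of their H2A.Z domains. Without Tbx1 and Tbx21, left out together after their values were known, 6 of 25 peaks were lower (24.0%, 9.36 to 45.1%). The background of 19.5% near protein-coding genes lies well inside that interval.

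At the gene start the calls were mixed, and the count depends on which start is used. A peak covered or lay within 1 kb of the start at 8 of the 9 genes, and the one nearest the start was in the lower list at 4 (Tbx1, Tbx3, Tbx4 and Tbx21) and in neither list at 4 (Tbx5, Tbx15, Tbx18 and Tbx20). Tbx2 had no peak there. Counting only peaks that cover the start, 3 of 5 were lower, without those at Tbx3, Tbx5 and Tbx15, which lie 812, 209 and 19 base pairs away. The start of Tbx15 is only its gene end of lower coordinate, because its strand is unknown, and that of Tbx18 is from the RefSeq promoter table. The RefSeq span of Tbx5 begins at 119796514, just before its lower peak, so another choice of start would change its call. For the 7 genes with a lower peak by name, the start was read from the distance listed for those lower peaks. Both counts therefore depend in part on the calls themselves. Neither has a share over all genes to set beside it. With starts of the RefSeq promoter table alone, which were matched for 5 of the genes and give only an inner one for Tbx4, 2 of 4 were lower, and by that same measure 29.6% of all peaks that cover a protein-coding start were. By the narrower measure of a lower peak centred within 1 kb of the TSS in the authors' annotation, 2 of the 9 genes counted (Tbx1 and Tbx21), against 19.1% of protein-coding genes with a peak. Within 3 kb it was 4, with Tbx3 and Tbx4 added.

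Tbx1 (Entrez 21380, chr16:18580979-18590671) carried a lower peak of 3886 base pairs over its start (chr16:18588385-18592270, centred 344 base pairs downstream of the TSS and annotated to the first intron), wider than 93.8% of all peaks. A second lower peak of 1782 base pairs covered the last exon of a Tbx1 transcript (chr16:18581451-18583232), 8.33 kb from the outer start and 4628 base pairs from the TSS that the authors' annotation took. Another, of 501 base pairs, as narrow as any peak in the set, lay 11.2 kb upstream (chr16:18601668-18602168). These 3 rows put Tbx1 among the 474 of 6690 genes with a lower peak (7.09%) that have 3 or more.

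Lower H2A.Z was not limited to Tbx1 within its neighbourhood. Within 50 kb of the gene 8 of 9 peaks were lower. The exception lay 17.6 kb upstream and was 881 base pairs wide. Beyond it followed 5 lower peaks in a row over 17.8 kb, at the platelet glycoprotein gene Gp1bb and the adjoining Septin5, whose symbol appears as a date in the authors' table and was read through its Entrez ID. On the other side the next peak of the set, beyond 50 kb, was also lower and lay at the far edge of Gnb1l. With the 3 lower peaks of Tbx1 it made a run of 4 peaks that spanned 104 kb. Most of that span was space without a peak, between Tbx1 and the peak at Gnb1l. Of all 9077 lower peaks, 12.8% lie in runs of at least 4 peaks of the set that are all lower, and 6.90% in runs of at least 5.

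Tbx21 (Entrez 57765, chr11:97098007-97115331) had 4 lower peaks by name, and 171 of the 6690 genes (2.56%) had 4 or more. One of 1450 base pairs covered the start and first exon (chr11:97114328-97115777, centred at 279 base pairs). Within the gene, 1 of 501 base pairs lay in the second exon (chr11:97101736-97102236) and 1 of 1207 base pairs in the last (chr11:97098190-97099396), 13.3 and 16.5 kb from the TSS. The fourth, of 1221 base pairs, was 12.1 kb upstream (chr11:97126813-97128033). These 4 and the next 2 peaks upstream, which lie within Tbkbp1 and were assigned to Mir7235, made an unbroken run of 6 lower peaks over 44.5 kb. Runs of at least 6 hold 3.37% of all lower peaks. In contrast to Tbx1, no peak at Tbx21 was as wide as 3 kb. Within 50 kb, 8 of 10 peaks were lower, and both others lay downstream of the gene, between Tbx21 and Osbpl7 or in Osbpl7.

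**Figure D2:**
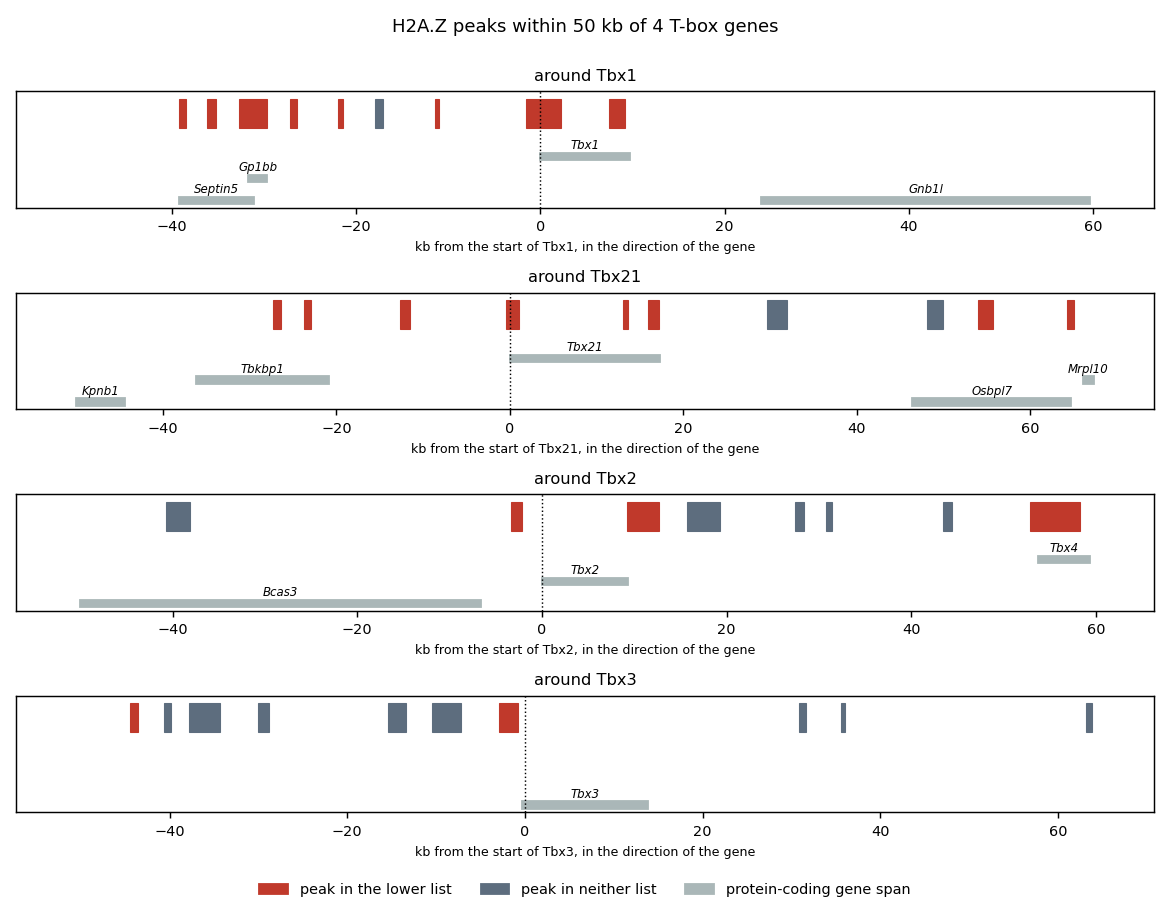
H2A.Z peaks (upper bars) centred within 50 kb of Tbx1, Tbx21, Tbx2 and Tbx3, against distance in kb from the gene's start, with the spans of protein-coding genes below. Around Tbx1 8 of 9 peaks were lower and around Tbx21 8 of 10, some of them at neighbouring genes. The space after Tbx2 held 1 lower peak of 5 before Tbx4, and the space after Tbx3 none.

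Tbx2 (Entrez 21385) and Tbx4 (Entrez 21387) lie side by side on chromosome 11, 44.4 kb apart and in the same direction. Tbx2 had no peak on its start. Its 2 lower peaks flanked the gene. One of 3402 base pairs overlapped the 3′ end (chr11:85841878-85845279, 11.0 kb from the TSS, annotated as intergenic). The other, of 1205 base pairs, lay 2.71 kb upstream of the start (chr11:85829298-85830502) and was assigned in the authors' annotation to the non-coding gene 2610027K06Rik, so a search by name misses it. A peak of 3589 base pairs just beyond the 3′ one (chr11:85848341-85851929) was in neither list. These 2 neighbours were alike in width and differed in call.

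Tbx4 had the widest lower peak of the 9 genes, 5507 base pairs over its start and first intron (chr11:85885423-85890929), wider than 97.5% of the set and centred 1809 base pairs from the TSS. The other 5 peaks within 10 kb of Tbx4, from 774 to 1915 base pairs wide, were in neither list. Between Tbx2 and Tbx4 lay 5 peaks, of which the one at the 3′ end of Tbx2 was lower. The lower H2A.Z at the 2 genes was thus at separate places, with 4 peaks in neither list between them.

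Tbx3 (Entrez 21386) and Tbx5 (Entrez 21388) form the other neighbouring pair, on chromosome 5, with 112 kb between them. Tbx3 had 1 lower peak, of 2053 base pairs, just before its start (chr5:119667998-119670050, centred at -1838 base pairs from the TSS). A wider peak of 3185 base pairs, 8.82 kb upstream (chr5:119660445-119663629), was in neither list, and there was no peak inside Tbx3. Of the 10 peaks within 50 kb, 2 were lower, the second one 44.0 kb upstream and assigned to Gm16063. All 6 peaks in the space between Tbx3 and Tbx5, of 501 to 1771 base pairs, were in neither list.

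Tbx5 carried the widest peak of the 9 genes, 7439 base pairs (chr5:119834872-119842310), wider than 99.1% of the set, and it was in neither list. It begins 209 base pairs after the TSS used in the authors' annotation. The 1 lower peak assigned to Tbx5 was 626 base pairs wide and lay 36.9 kb upstream of that TSS (chr5:119797497-119798122). It is annotated as intergenic, though the RefSeq span of Tbx5, which includes predicted transcripts, begins before it. The other 2 peaks, of 884 and 1088 base pairs, were in neither list. Tbx5 therefore counts among genes with lower H2A.Z only through a narrow peak. That peak is far from the widest peak and from the authors' TSS, but not from the RefSeq end.

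Tbx20 (Entrez 57246, chr9:24720812-24774303) showed the same arrangement on a smaller scale. The peak of 4900 base pairs over its start (chr9:24773583-24778482) was in neither list, and the lower peak, of 1158 base pairs, lay 6.94 kb upstream in a CpG island (chr9:24780665-24781822). A peak of 1039 base pairs inside the gene was in neither list. All 4 peaks farther upstream within 50 kb, of 607 to 2527 base pairs, were in neither list either, so the lower peak at Tbx20 stood alone.

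Tbx18 (Entrez 76365, chr9:87702800-87731260) and Tbx15 (Entrez 21384, chr3:99240348-99354260) had H2A.Z but no listed peak. At Tbx18 a peak of 6326 base pairs covered the start (chr9:87729139-87735464), and one of 2007 base pairs lay 8.82 kb upstream. At Tbx15 the 5 peaks had widths of 970 to 5228 base pairs. The widest (chr3:99253283-99258510) lay inside the gene, and one of 1483 base pairs began 19 base pairs inside the gene end of lower coordinate. Within 50 kb, 0 of 2 peaks at Tbx18 and 0 of 6 at Tbx15 were lower. Absence from both lists does not show that H2A.Z was unchanged, since the size and error of each change are unknown.

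**Figure D3:**
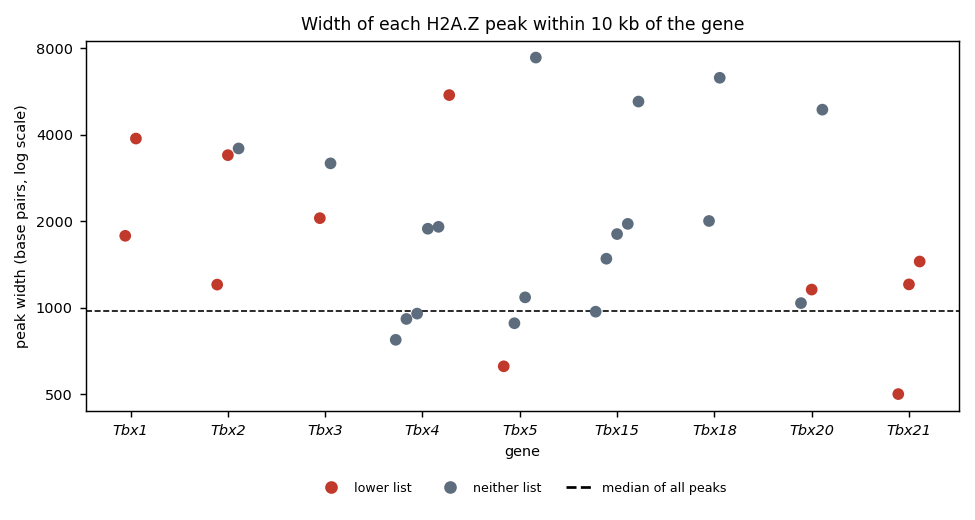
Width in base pairs (log scale) of each of the 30 H2A.Z peaks within 10 kb of the 9 genes, 1 point per peak. The widest peaks at Tbx2, Tbx3, Tbx5, Tbx15, Tbx18 and Tbx20, from 3185 to 7439 base pairs, were in neither list. Those at Tbx1, Tbx4 and Tbx21, from 1450 to 5507 base pairs, were lower.

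The median width of the 30 peaks was 1795 base pairs (1450 for the 11 lower and 1886 for the 19 in neither list), against 977 over all peaks (1034 for lower peaks and 967 for those in neither list) and 1054 over peaks near any protein-coding gene. Over the same window the median was 2535 at the other T-box genes of the mouse and from 1292 to 1463 at the 4 lists of genes that act with T-box factors. At 8 of the 9 genes, Tbx21 being the exception, a peak reached 3 kb. The share of all protein-coding genes with such a peak was not counted. Over the set, 6768 of 61420 peaks reached 3 kb, and 9 of the 30 at the members did. Of these 9 wide peaks 3 were lower, at Tbx1, Tbx2 and Tbx4. Over the whole set 10% of peaks of 3 kb or more were lower, and 22.2% of those that cover a protein-coding start. In the authors' annotation the 12 lower peaks given to the members were intergenic in 6 cases, exonic in 4 and intronic in 2. None was in the promoter class, which holds 18.9% of all lower peaks. This class follows where the centre falls, and the lower peaks of Tbx1 and Tbx21 cover their starts while centred in an intron and an exon. The median distance of the 12 from the TSS was 8.95 kb, against 5.57 kb for all lower peaks.

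Among the 8 other T-box genes of the mouse, lower peaks were at 3, where 42.4% of protein-coding genes with a peak had one. Of 17 peaks within 10 kb of the 8, 5 were lower (29.4%, 10.3 to 56.0%) and 0 higher. Tbr1, a factor of cortical neurons, had 3 of 3 peaks lower and 4 lower peaks by name. T, the primitive streak factor Brachyury, had 1 of 1, and Tbx10 had 1 of 3, assigned to another gene. Eomes (0 of 3), Tbx19 (0 of 3), Mga (0 of 2), Tbx6 (0 of 1) and Tbx22 (0 of 1) had none. The intervals of the 2 groups overlap over most of their range, so a difference between them was not detectable with these counts.

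In 4 lists of genes that act with T-box factors the share of lower peaks ran from 21.1% to 38.7%. Among heart transcription factors 15 of 59 peaks were lower (25.4%, 15.0 to 38.4%). These were at 9 of the 14 genes, against 42.4% of protein-coding genes with a peak. At 4 of the 14, against 19.1% of protein-coding genes with a peak, a lower peak lay within 1 kb of the TSS. It was 9548 base pairs wide at Smarcd3, a remodelling subunit that works with Tbx5, 3843 at Gata4, 1831 at Mesp1, a factor of early heart progenitors, and 1510 at Gata5. Hand2 (0 of 4 peaks) and Isl1 (0 of 5) had none, although a higher peak beyond this window was assigned to Isl1. Among limb bud genes 12 of 45 peaks were lower (26.7%, 14.6 to 41.9%). These were at 7 of the 14 genes, of which 13 had a peak, beside the same 42.4%. Fgf8, a signal of the limb ridge, was the only limb bud gene with a lower peak within 1 kb of the TSS (1382 base pairs), beside the same 19.1%. Fgf10, the limb mesenchyme signal downstream of Tbx5, had 0 of 4, and Gli3 0 of 2.

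Heart genes known as targets of T-box factors had 12 of 31 peaks lower (38.7%, 21.9 to 57.8%). These were at 6 of the 12 genes, of which 10 had a peak, against the 42.4% of protein-coding genes with a peak. Those with lower peaks near a TSS, within 1 kb, included Myl7, the atrial myosin light chain (6141 base pairs), the pacemaker channel gene Hcn4 (2917) and the natriuretic peptide gene Nppb (839). Nppa had no peak within 10 kb, and Gja5 had 1, which was in neither list. Myh6 (3 of 5 peaks lower) and Myh7 (1 of 2) had no lower peak by name, so theirs were assigned to other genes. A peak near both was counted once in the list. Of the type 1 helper T cell genes tied to Tbx21, 4 of 19 peaks were lower (21.1%, 6.05 to 45.6%), all 4 at Runx3, where the widest at the TSS was 3923 base pairs. Ifng had 0 of 1 and Il12rb2 0 of 3. No peak within 10 kb of a gene of these 4 lists was in the higher list. The background of 19.5% lay inside the intervals of 3 of the 4 lists and just below that of the heart targets.

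**Figure D4:**
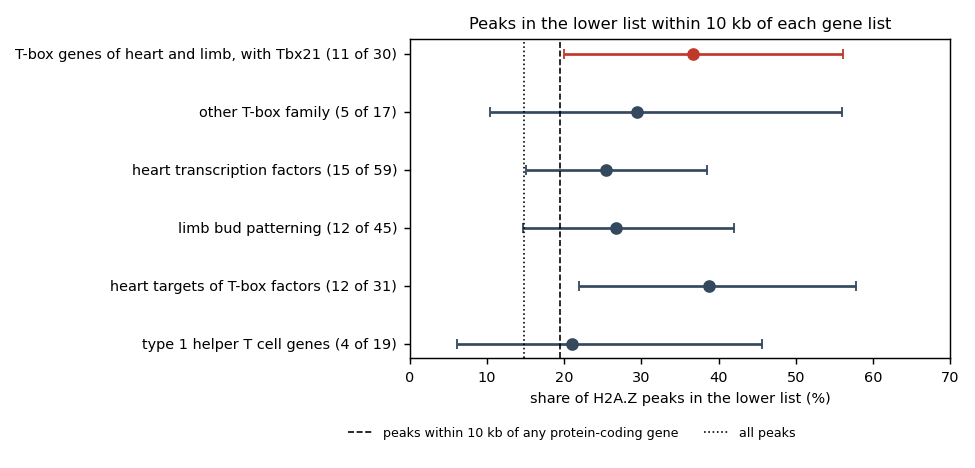
Share in percent of H2A.Z peaks within 10 kb of each gene list that were in the lower list. Bars are 95% exact Clopper-Pearson intervals, which cover counting of peaks only and treat peaks as independent. The dashed line is the share for peaks near any protein-coding gene (19.5%) and the dotted line that of all peaks (14.8%). The 9 T-box genes stood at 36.7%, and their interval overlaps those of all 5 other lists.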

How the data were processed

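H2A.Z CUT&Tag peaks were analysed. The labels place the 56 libraries in groups by target and treatment. From the file names, the 8 for H2A.Z were taken to be behind the files used. The other 48 are not analysed here, and whether the IgG libraries entered peak calling is not given. Per the submitters' processing notes, the tools were Trimmomatic, Bowtie2, deepTools, HOMER and Picard and the build GRCm38. Not given in the sources used here: tool roles and versions, the peak caller, the pooling of replicates, and the test and threshold behind the lists. Per the file headers, both lists were annotated with annotatePeaks of HOMER. In the authors' files the score of each listed peak, as deposited, is 0 and was left aside. The headers do not state the contrast. List names were taken to mean lower or higher H2A.Z with doxycycline than without. Positions count from 1.

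Listed peaks (9077 lower, 318 higher) were matched to the set by identical coordinates, and each found its match. A peak was at a gene if its centre lay within 10 kb of the gene's span in RefSeq GRCm38.p6. Gene starts were those implied by the authors' distance to the TSS, or of the RefSeq promoter table for Tbx18. For Tbx15 no strand was used. Shares have 95% exact Clopper-Pearson intervals, and a count of 0 is given the limit of 3 counts. The assignment of peaks to genes was tested on simulated data. The members and lists were chosen with earlier results of these data known. All members and all other T-box genes are named. Neighbouring genes, the higher peak at Isl1, and Myh6 and Myh7 were named after their values were seen. Of other lists, up to 4 genes with the widest lower peak within 1 kb of the TSS are named. Up to 2 genes without a lower peak are also named. A gene picked by this rule is not reported here. Alternatives covered the window, the overlap rule, nearest genes, peaks of minimum width and single members. Python 3.11.15, pandas 2.3.3, numpy 2.4.6, SciPy 1.17.1 and matplotlib 3.10.9 were used.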

Additional observations from a re-analysis of the deposited data

How the results depend on the processing

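The share of lower peaks at the 9 genes ranged from 23.0% to 43.5% over the 10 alternatives. Each value was above the background of its setting, but most of the intervals included that background. Exceptions were the windows of 3 kb (23.2 to 65.5%, background 21.2%) and 50 kb (24.7 to 49.6%, background 16.6%). The other was matching of listed peaks by overlap (19.9 to 56.1%, background 19.5%). The settings reuse the same peaks and are not separate evidence. Counts moved by more than 1.5 times from 11 of 30 peaks in 4 settings. They were 23 of 63 within 50 kb (background 16.6%) and 17 of 74 with each peak given to the nearest gene (background 14.8%). Without Tbx1 and Tbx21 they were 6 of 25 (background 19.5%). Among peaks of 3 kb or more they were 3 of 9 (background near protein-coding genes 14.6%). The last 2, like the settings without Tbx1 (9 of 28) or without Tbx21 (8 of 27), were chosen after seeing the data. Genes with a lower peak numbered 7 in the main setting and 6 within 3 kb. Those with a lower peak centred near the TSS numbered 2 within 1 kb and 4 within 3 kb. No paired analysis was possible because the files hold no value per library, which also kept single replicates from being left out. Depth and peak height are unknown here.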
